A study of Mus musculus with 30 samples.

Results

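The genes described here are 41 mouse type I interferon-stimulated genes (ISGs), named by symbol in a list and found through their Ensembl identifiers. All 41 were among the 54532 genes of the count table, and 37 of them were among the 12393 genes with enough counts to be tested. RNA was sequenced from dendritic cells that had been grown out of mouse bone marrow over 6 days under GM-CSF, which favours myeloid cells. The marrow came from wild-type mice (WT) or from mice deficient in Nlrx1 (KO), and in each genotype cells were taken at 0 h, prior to any challenge, and again 3, 6, 9 and 12 h later. The challenge was viable conidia, the spores of the mould Aspergillus fumigatus (strain AF29), as many conidia as cells plated. With 5 times in each genotype there were 10 groups, of 3 libraries apiece, or 30 libraries. No uninfected culture kept for the same times was analysed here, so the time since plating and the fungus cannot be told apart. Nothing in the labels tells whether libraries sharing a group came from different cultures or animals, and the p-values therefore reflect the spread among these libraries alone, which may be technical.

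Type I interferons are secreted cytokines that bind the receptor chains Ifnar1 and Ifnar2. The kinases Jak1 and Tyk2 then signal to a transcription factor complex that contains Stat2 and Irf9 and binds the interferon-stimulated response element (ISRE) near its target genes. The products block viral replication, sense foreign nucleic acid, attract lymphocytes or feed back on the pathway itself, and dendritic cells switch them on after sensing microbes or interferon from neighbouring cells. Nlrx1 encodes a NOD-like receptor family protein of mitochondria that has been described as a regulator of antiviral signalling through the adaptor Mavs.

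An ISRE-like sequence, GAAA, any 2 bases and GAAA again (on the other strand TTTC, any 2 bases and TTTC), marks what many of these genes share at their start sites and what the rule for choosing them did not use. RefSeq promoters of build GRCm38.p6, from 250 bases before to 50 bases after each start, were at hand for 31 of the 41 members. A match on either strand lay in 16 of the 31 members (51.6%), against 1079 of 27025 genes (3.99%) in the same windows. Counted by promoter, 18 of 39 member promoters (46.2%) held one, against 3.44% of all 32851. Of 22 members with a promoter at hand that were called higher at 12 h in WT or KO, 14 held a match. Of the 5 not called 1 did, and of the 4 not tested 1. Ifit2, Cmpk2, Herc6, Irf7 and Oasl2, called higher in both genotypes, held none, and neither did Oasl1 and Xaf1, called in WT, or Ifi47, called in KO. The stretches below were picked from members that held a match, all before the start site and read along the gene's own strand. Capitals mark every match, with overlapping matches run together.
Ifit1: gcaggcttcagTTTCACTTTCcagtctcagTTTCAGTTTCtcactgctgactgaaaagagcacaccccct
Ifit3: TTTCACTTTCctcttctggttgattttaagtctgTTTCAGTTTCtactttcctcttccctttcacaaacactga
Ifit3b: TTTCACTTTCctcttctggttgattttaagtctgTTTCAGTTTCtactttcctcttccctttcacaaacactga
Isg15: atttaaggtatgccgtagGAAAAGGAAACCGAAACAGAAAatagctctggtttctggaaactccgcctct
Rsad2: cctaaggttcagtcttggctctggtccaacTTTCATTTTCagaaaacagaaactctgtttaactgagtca
Oas3: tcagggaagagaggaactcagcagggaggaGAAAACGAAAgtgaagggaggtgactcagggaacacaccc
Stat2: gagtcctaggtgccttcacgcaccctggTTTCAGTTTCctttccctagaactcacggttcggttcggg
Cxcl10: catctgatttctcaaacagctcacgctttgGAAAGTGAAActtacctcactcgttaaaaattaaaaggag
These lie at chr19:34640774-34640843 (plus strand), chr19:34583373-34583446 (plus), chr19:34607769-34607842 (plus), chr4:156200845-156200914 (minus), chr12:26456533-26456602 (minus), chr5:120777695-120777764 (minus), chr10:128270248-128270315 (plus) and chr5:92349063-92349132 (minus). The Isg15 stretch held 3 overlapping matches, 1 of which began 66 bases before the start site. Those of Ifit1, Ifit3 and Ifit3b held 2 each, and the stretches of Ifit3 and Ifit3b were letter for letter the same. A STAT-type match, TTCNNNGAA, which reads the same on both strands, lay in 8 of the 39 member promoters (20.5%) and in 8.3% of all. An NF-kappaB-like match, GGGAA, any 2 bases and TCC (on the other strand GGA, any 2 bases and TTCCC), lay in 2 (5.13%) and in 1.32% of all. Matches of different motifs can overlap and were counted separately. A match is a description of the letters, not evidence that a factor binds there.

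Total counts per library ran from 1722384 to 3509429. Nlrx1 itself, the gene lacking in KO, had group means of 7.62 to 11.8 CPM (counts scaled to a common library total) in WT and 1.94 to 3.29 CPM in KO, and averaged over the times it was lower in KO by a log2 difference of -1.87 ± 0.28 (adjusted p = 1.71e-05). Taken at 6 h or at 12 h alone, its difference was not called. The labelled cell type was checked against fixed markers. All 10 markers of conventional dendritic cells had counts, 7 of them in every library (Itgax, Cd74 and Zbtb46 among them). The rest were sparse: Flt3 had 46 counts in 13 libraries, Cd209a 26 in 7 and Dpp4 187 in 23. The summed level of the 10 was 2534 to 3585 CPM, with Itgax (97483 counts) and Cd74 (93430) the largest parts. All 10 macrophage markers were counted in every library, at 2030 to 3504 CPM summed, so the cultures carried both sets. Neutrophil markers, 10 of 10 with counts, summed to 190.4 to 978.4 CPM. The 8 plasmacytoid dendritic cell markers, of cells known for making interferon, summed to 39.9 to 70.9 CPM, carried mainly by Runx2 and Tcf4, with Siglech counted in 7 libraries and Ly6d at 0. B cell markers reached at most 9.29 CPM, T and NK cell markers 6.37 CPM with Trac and Gzma at 0, and mast cell and basophil markers 31.1 CPM with Fcer1a at 0. In bulk RNA, fewer cells of a type and less RNA per cell cannot be told apart.

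Several libraries stood apart on these genes. Of the 3 KO 12 h libraries, replicate 1 was the highest for 33 of the 37 tested members and replicate 3 the lowest for 36, whereas over all genes these libraries were highest for 33% and lowest for 34.7%. KO 9 h replicate 2 was the highest of its group for 33 members, and WT 12 h replicate 2 for 28. The spread between libraries was accordingly wide: the median coefficient of variation beyond counting error was 23.7% for the 37 members and 10.8% for all genes tested. It was widest for the sparsely counted Mx2 (111.3%), Oas2 (51.9%) and Oasl1 (51.1%) and narrowest for Samhd1 (6.18%). Calls that rest on these libraries are given with and without them.

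Per kilobase of exon, the highest member over all 30 libraries was Samhd1, at a mean of 49.2 CPM per kb. It encodes a hydrolase of nucleotides. Bst2 (tetherin, which holds virus particles at the membrane) followed at 26.6 CPM per kb, then Ifi204 at 17.8 and Parp14 at 16.2. The lower end held Oasl1 at 0.865 CPM per kb and Mx2 at 0.441. The 4 members too low to test were Ifit1bl1 (116 counts in all), Ifi44 (95), Isg20 (67) and Cxcl9 (29). Cxcl9, a chemokine that responds chiefly to interferon gamma, had 0 to 4 counts in every library. Ifi44 had 25, 20 and 0 counts in the KO 12 h libraries, 6, 8 and 3 at WT 12 h, and at most 6 in any other library, so its highest level stood in 2 libraries of 1 group. Ifit1bl1 had 10, 13 and 6 counts at WT 12 h and 10, 9 and 8 at KO 12 h, against 5, 0 and 0 at WT 0 h and 3, 4 and 0 at KO 0 h.

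As a whole the tested members were lower in WT than in KO at 0 h and highest at 12 h in both genotypes. The mean log2 CPM over the 37 members was 3.31, 3.39 and 3.27 in the WT 0 h libraries and 3.72, 3.97 and 4.06 in KO 0 h. At 12 h it was 4.48, 4.86 and 4.30 in WT and 5.53, 5.08 and 4.45 in KO. The 3 KO libraries lay above all 3 WT libraries at 0 h, while at 12 h the lowest KO library fell among the WT ones. In WT the mean over libraries was 3.32 ± 0.06 at 0 h, 3.84 ± 0.15 at 3 h, 3.63 ± 0.21 at 6 h, 4.02 ± 0.16 at 9 h and 4.55 ± 0.29 at 12 h (SD, n = 3 libraries). In KO it was 3.92 ± 0.18, 3.62 ± 0.21, 3.78 ± 0.05, 4.35 ± 0.45 and 5.02 ± 0.54 at the same times. Of the 37 members 35 had their highest group mean at KO 12 h and 23 their lowest at WT 0 h. Within WT 32 members peaked at 12 h and within KO 36. These counts were not taken over all genes. Nor were they taken without KO 12 h replicate 1, the highest of its group for 33 members.

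**Figure D1:**
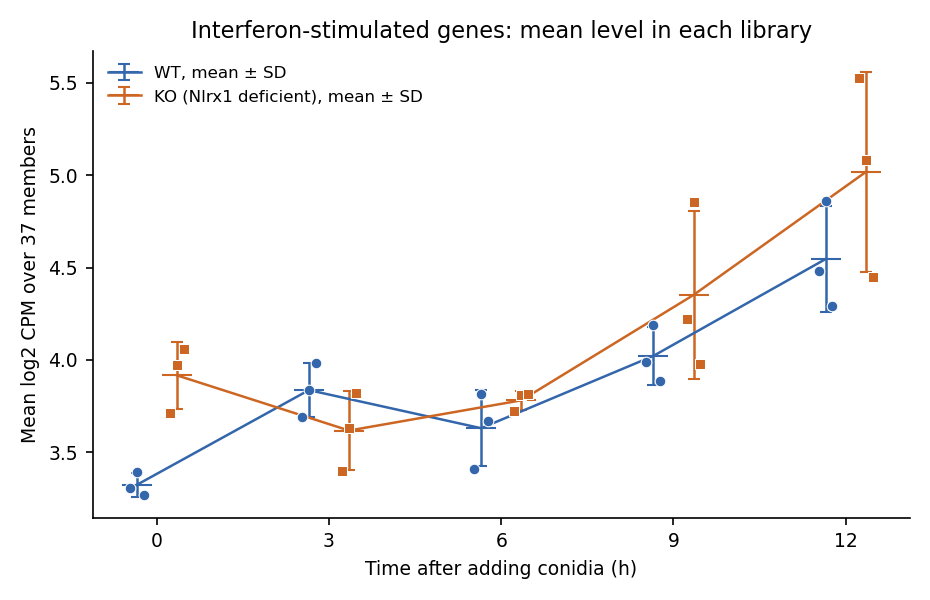
Mean log2 CPM over the 37 tested members (vertical axis) against time after adding conidia in hours (horizontal axis), for WT (circles) and KO (squares); each point is 1 library and bars are the mean ± SD of 3. WT libraries lie between 3.27 and 3.39 at 0 h and between 4.30 and 4.86 at 12 h, and the KO libraries between 4.45 and 5.53 at 12 h.

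**Figure D2:**
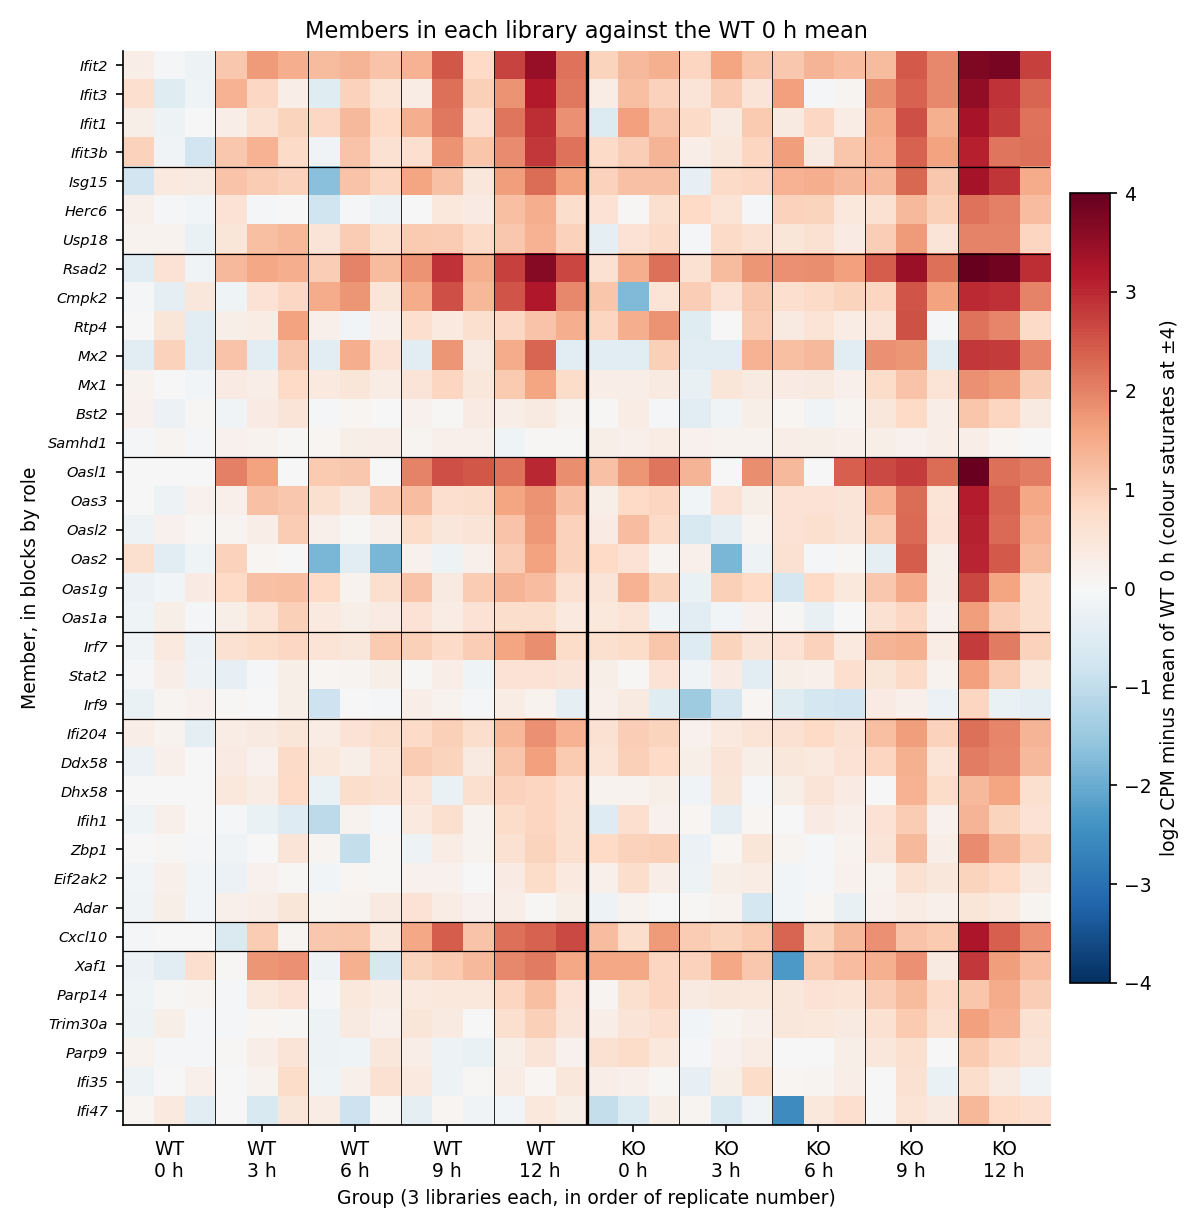
Each of the 37 tested members (rows, in blocks by role) in each of the 30 libraries (columns, 3 per group), as log2 CPM minus that member's mean over the WT 0 h libraries; the colour scale ends at ±4. Red gathers in the 12 h columns of both genotypes, and the third KO 12 h library is paler than the other two.

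At 12 h against 0 h, 22 of the 37 tested members rose in WT and none fell, with 18.1% of all genes tested called in either direction and 9.64% called higher and 8.47% lower (edgeR quasi-likelihood test, Benjamini-Hochberg adjusted p under 0.05). In KO 25 rose and none fell, against 14.7% of all genes in either direction, 8.13% higher and 6.58% lower. The median log2 change of the members was 1.22 in WT and 1.12 in KO, where the medians over all genes were 0.00 and -0.01. In 30 members all 3 WT 12 h libraries lay above all 3 WT 0 h libraries, which 18.3% of all genes did, and in KO the number was 22, against 15.2% of all genes. The calls shared 19 members, which is 86.4% of the WT calls and 76% of the KO calls. Oasl1, Eif2ak2 and Xaf1 were called in WT only, and Bst2, Oas1a, Oas2, Stat2, Dhx58 and Ifi47 in KO only; whether any member changed differently in the genotypes is tested further on. The 9 called in neither were Mx2, Samhd1, Rtp4, Oas1g, Irf9, Zbp1, Adar, Ifi35 and Parp9. Shares of all genes called, here and below, are from the edgeR fit to all 30 libraries. None is given for fits with a library left out or for the other alternatives. Leaving out 1 library at a time left 15 to 21 calls in WT, the lowest without WT 12 h replicate 2. It left 14 to 25 in KO, the lowest without KO 12 h replicate 1, and a fit of the KO 0 h and 12 h libraries alone called 14, without Bst2, Cxcl10, Ifi47, Ifih1, Ifit1, Irf7, Oas1a, Oasl2, Parp14, Stat2, Trim30a and Usp18. With no filter on low counts 17 were called in each genotype, and the calls of Eif2ak2, Ifih1, Oasl2, Trim30a and Xaf1 in WT and of Cxcl10, Ifi47, Ifih1, Ifit3b, Irf7, Oas2, Parp14 and Stat2 in KO ended. The share of counts in small RNA genes was 5.82% ± 0.30 at WT 0 h and 3.92% ± 0.09 at WT 12 h, and 3.42% ± 0.08 and 3.33% ± 0.18 in KO, while summed macrophage markers went from 3336 to 3504 down to 2507 to 2584 CPM in WT and from 2389 to 2615 to 2030 to 2279 CPM in KO. Conventional dendritic cell markers went from 3144 to 3304 CPM down to 2534 to 2912 in WT, T and NK cell markers from 0 to 1.77 up to 2.46 to 6.37 CPM in WT, and neutrophil markers from 220.7 to 270.7 down to 190.4 to 211 CPM in KO. Their part in the changes was not tested.

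**Figure D3:**
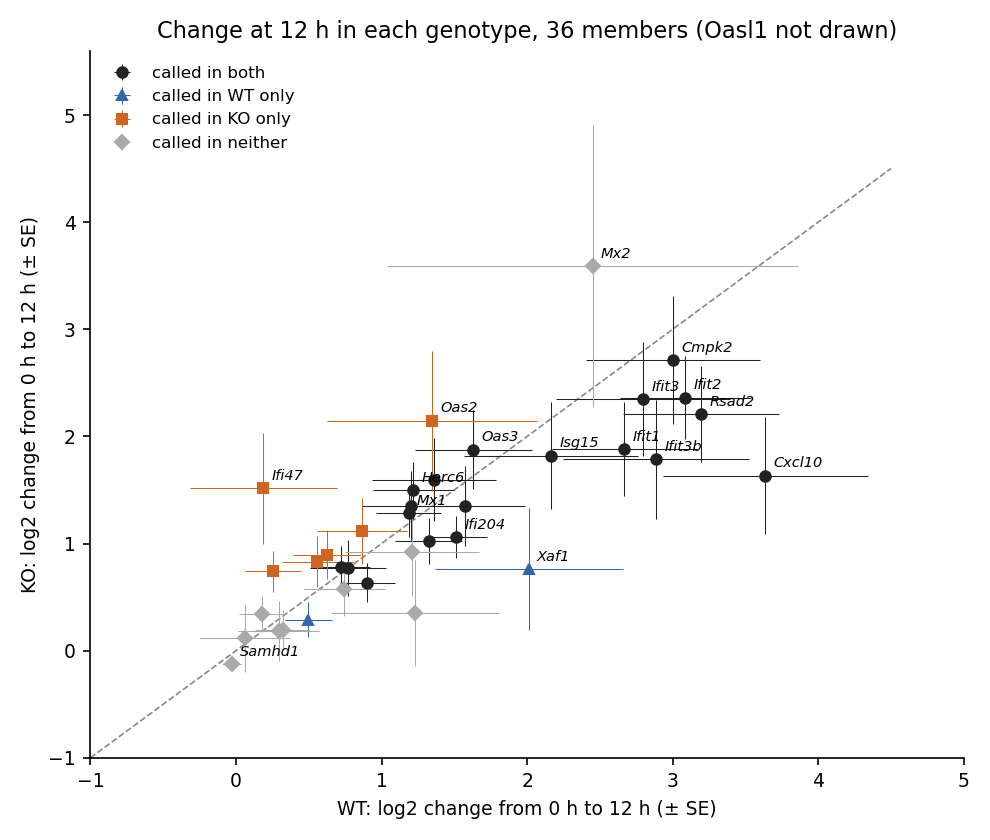
Log2 change from 0 h to 12 h in WT (horizontal axis) against the same change in KO (vertical axis), with SE bars, for 36 tested members; the dashed line marks equal change, and shape and colour give where a member was called. Oasl1 is left out because it had no count at WT 0 h. Members called in both genotypes run from Trim30a and Ifih1 near 0.7 to Ifit2, Rsad2 and Cmpk2 above 2 on both axes.

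The Ifit genes, whose products bind foreign RNA and hold back its translation, rose together: 4 of the 4 tested were called in each genotype, with a median log2 change of 2.84 in WT and 2.11 in KO. Ifit1 (ENSMUSG00000034459, chromosome 19, 34640871 to 34650009, GRCm38) stood at 3.18, 2.098 and 2.49 CPM in WT at 0 h, 3.23, 4.32 and 5.44 after 3 h, 5.09, 7.44 and 5.07 after 6 h, 8.38, 13.6 and 4.51 after 9 h and 14.1, 25.1 and 11.1 after 12 h. In KO its values were 1.502, 9.74 and 6.62 CPM before challenge, 4.89, 3.53 and 6.15 after 3 h, 3.46, 5.21 and 3.34 after 6 h, 8.55, 19.2 and 8.26 after 9 h and 32.2, 22.3 and 14.2 after 12 h. All 12 h libraries of either genotype lay above every 0 h library of the same genotype, and at 3 h and 6 h KO overlapped its own 0 h range. The log2 change at 12 h was 2.67 ± 0.50 (adjusted p = 0.000296) in WT and 1.88 ± 0.44 (adjusted p = 0.00315) in KO. Ifit2 (ENSMUSG00000045932, chromosome 19, 34550694 to 34576419) had 4.94, 3.78 and 3.32 CPM at WT 0 h, 9.296, 14.6 and 12.4 after 3 h, 10.6, 11.4 and 9.72 after 6 h, 11.7, 25.96 and 7.52 after 9 h and 30.2, 52.9 and 20.5 after 12 h. The KO libraries had 8.01, 10.9 and 11.9 CPM before challenge, 7.75, 13.4 and 9.43 after 3 h, 9.23, 11.4 and 10.4 after 6 h, 10.6, 24.96 and 17.4 after 9 h and 62.8, 65.1 and 30.8 after 12 h. In WT every later library was above the 0 h libraries, and in KO only the 12 h libraries were all clear of the 0 h range. Ifit2 rose by 3.09 ± 0.45 (adjusted p = 1.65e-05) in WT and 2.36 ± 0.39 (adjusted p = 8.91e-05) in KO.

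Ifit3, a binding partner of Ifit1, went from 2.83, 0.839 and 1.25 to 7.196, 19.8 and 9.01 CPM in WT and from 2.002, 4.497 and 3.53 to 25.7, 16.3 and 10.8 CPM in KO between 0 h and 12 h. Its log2 changes were 2.797 ± 0.59 (adjusted p = 0.00124) and 2.35 ± 0.53 (adjusted p = 0.00253). Ifit3b went from 1.77, 0.419 and 0 to 4.15, 8.67 and 5.32 CPM in WT and from 1.502, 1.87 and 2.65 to 10.9, 5.102 and 5.38 in KO, with log2 changes of 2.88 ± 0.64 (adjusted p = 0.0018) and 1.79 ± 0.56 (adjusted p = 0.0292). The 12 h libraries of both genes stood clear of the 0 h ones in each genotype. The 2 genes cannot be kept apart with certainty in these counts: their longest coding transcripts were 98% identical over 1697 aligned bases, and 51.2% of the 50-base windows of Ifit3 occurred unchanged in Ifit3b. The KO call of Ifit3b ended without KO 0 h replicate 1 (0.0922), KO 0 h replicate 2 (0.0985) or KO 12 h replicate 1 (0.175) (here and in what follows, the value after a library left out is the adjusted p without it). The 5 Ifit members lie in a row on chromosome 19, with gaps of 4159 to 27469 bases between neighbours.

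The ubiquitin-like modifier Isg15 and the enzymes that attach and remove it also rose, 3 of 3 in each genotype. Isg15 (ENSMUSG00000035692, chromosome 4, 156199424 to 156200818) had 0.706, 2.52 and 2.49 CPM at WT 0 h, 4.85, 4.32 and 3.95 after 3 h, 0, 4.81 and 3.804 after 6 h, 6.71, 4.87 and 2.71 after 9 h and 7.196, 11.1 and 6.96 after 12 h. In KO it had 4.005, 4.87 and 4.86 CPM before challenge, 1.22, 3.53 and 3.69 after 3 h, 5.77, 6.16 and 5.43 after 6 h, 5.47, 11.6 and 4.54 after 9 h and 24.8, 17.5 and 6.36 after 12 h. The 12 h values were above the 0 h values of the same genotype in every library, and the 3 KO libraries at 12 h spanned the widest range of any group. The log2 change was 2.16 ± 0.60 (adjusted p = 0.0116) in WT and 1.82 ± 0.50 (adjusted p = 0.0131) in KO. Herc6, the main ligase for Isg15 in mice, rose from 10.9, 8.81 and 8.71 to 22.97, 27.2 and 15.97 CPM in WT and from 14.5, 9.74 and 15.02 to 44.9, 40.8 and 23.5 in KO, by 1.22 ± 0.28 (adjusted p = 0.00269) and 1.497 ± 0.27 (adjusted p = 0.000202). Usp18, which removes Isg15 and restrains the interferon receptor, rose from 8.12, 7.97 and 5.81 to 16.1, 20.1 and 14.3 CPM and from 5.51, 11.2 and 12.8 to 30.9, 31.2 and 13.7 CPM, by 1.201 ± 0.34 (adjusted p = 0.0128) and 1.35 ± 0.32 (adjusted p = 0.00386). For Herc6 and Usp18 too the 12 h libraries all stood above the 0 h libraries. The WT call of Isg15 ended without WT 0 h replicate 1 (0.0743) or WT 12 h replicate 2 (0.0556) and its KO call without KO 12 h replicate 1 (0.0968), and the WT call of Usp18 without WT 0 h replicate 3 (0.0611) or WT 12 h replicate 2 (0.0641).

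Among the antiviral effectors 3 of 7 tested rose in WT and 4 in KO. Rsad2 (viperin, which makes a chain-terminating nucleotide) went through 3.88, 8.81 and 4.98 CPM at WT 0 h, 14.9, 17.8 and 16.8 after 3 h, 11.9, 24.5 and 14.4 after 6 h, 21.1, 46.4 and 16.5 after 9 h and 41.5, 78.3 and 40.1 after 12 h. In KO it went through 9.01, 16.5 and 28.7 CPM before challenge, 8.97, 14.5 and 20.9 after 3 h, 21.9, 22.2 and 19.2 after 6 h, 33.2, 69.1 and 28.5 after 9 h and 112, 91.2 and 48.4 after 12 h. In WT all libraries from 3 h on exceeded the 0 h libraries, whereas in KO no 3 h or 6 h library exceeded the highest 0 h library. Rsad2 rose by 3.197 ± 0.54 (adjusted p = 0.000154) in WT and 2.21 ± 0.45 (adjusted p = 0.00126) in KO at 12 h. Its neighbour Cmpk2, a nucleotide kinase gene 12751 bases away on chromosome 12, went from 1.77, 1.26 and 2.904 to 14.7, 23.8 and 9.42 CPM in WT and from 5.01, 0 and 3.09 to 20.5, 19.4 and 9.78 in KO, by 3.003 ± 0.60 (adjusted p = 0.000673) and 2.71 ± 0.59 (adjusted p = 0.00193). Mx1, a dynamin-like GTPase that blocks viral replication, went from 21.5, 19.3 and 18.2 to 41.2, 59.7 and 33.2 CPM and from 24.03, 23.98 and 25.2 to 71.9, 65.7 and 39.6 CPM, by 1.19 ± 0.23 (adjusted p = 0.000366) and 1.28 ± 0.22 (adjusted p = 0.000124). None of these 3 genes overlapped between 0 h and 12 h in either genotype. Bst2 was called in KO (0.74 ± 0.19, adjusted p = 0.00765) and not in WT (0.25 ± 0.19, adjusted p = 0.412), and its KO call ended without KO 0 h replicate 3 (0.0505) or KO 12 h replicate 1 (0.0688). The changes of Samhd1, -0.03 ± 0.07 in WT and -0.13 ± 0.07 in KO, were not called. Mx2 had 3 counts over the WT 0 h group and 23 over WT 12 h, a ratio of 6.3 (counting interval 1.9 to 32.8), and 3 and 44 in KO, a ratio of 13.6 (4.36 to 68.5), neither of them called. Such intervals, at a level of 95%, cover counting error only.

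The oligoadenylate synthetases make a messenger that switches on RNA decay by RNase L, and 3 of 6 rose in WT and 4 in KO. Oas3 went from 8.12, 6.71 and 9.13 CPM at 0 h to 25.5, 29.7 and 18.8 after 12 h in WT and from 9.51, 14.2 and 15.02 to 76.7, 42.7 and 24.5 in KO. All libraries at 12 h exceeded those at 0 h. Its changes were 1.63 ± 0.40 (adjusted p = 0.00558) and 1.88 ± 0.37 (adjusted p = 0.000711). Oasl2 went from 12.7, 16.8 and 15.3 to 33.5, 51.4 and 29.1 CPM in WT and from 19.02, 35.98 and 25.6 to 132, 74.9 and 40.1 in KO, by 1.36 ± 0.43 (adjusted p = 0.0288) and 1.597 ± 0.38 (adjusted p = 0.00559). Its KO replicate 1 at 12 h was the highest Oasl2 value of any library. Oas2 went from 4.005, 3.37 and 2.21 to 22.2, 14.3 and 5.87 CPM in KO (2.15 ± 0.66, adjusted p = 0.0256) and from 3.53, 1.26 and 1.66 to 4.71, 7.74 and 4.504 in WT (1.35 ± 0.72, adjusted p = 0.219). Oasl1, a relative without the enzyme activity that holds back production of Irf7, had no count in any WT 0 h library and 10, 18 and 5 counts at 12 h, at least 9.03-fold higher with the WT 0 h group set to 3 counts in all (adjusted p = 0.00604). In KO it had 2, 5 and 6 counts at 0 h and 26, 9 and 5 after 12 h and was not called (adjusted p = 0.225). Oas1a was called in KO (0.90 ± 0.23, adjusted p = 0.007) and not in WT (0.62 ± 0.23, adjusted p = 0.0662), and Oas1g in neither. Reads of this pair may be divided arbitrarily, since their longest coding transcripts were 97.5% identical over 1860 aligned bases. The WT call of Oasl2 ended without WT 0 h replicate 1 (0.101), WT 0 h replicate 2 (0.0606), WT 0 h replicate 3 (0.0697) or WT 12 h replicate 2 (0.138) and its KO call without KO 12 h replicate 1 (0.0575). The KO calls of Oas2 and Oas1a ended without KO 0 h replicate 2 (0.0785), KO 0 h replicate 3 (0.101), KO 12 h replicate 1 (0.143) or KO 12 h replicate 2 (0.0581), and without KO 0 h replicate 3 (0.0613) or KO 12 h replicate 1 (0.103), in that order.

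Of the transcription factors, Irf7, which drives later waves of interferon genes, was called in both genotypes. Irf7 (ENSMUSG00000025498, chromosome 7, 141262706 to 141266481) had 4.94, 7.55 and 4.56 CPM at WT 0 h, 8.89, 9.73 and 10.4 after 3 h, 8.49, 7.88 and 12.3 after 6 h, 11.4, 10.1 and 11.7 after 9 h and 17.99, 22.3 and 9.83 after 12 h. In KO it had 9.01, 9.74 and 12.8 CPM before challenge, 3.67, 10.9 and 8.2 after 3 h, 8.66, 11.4 and 7.52 after 6 h, 15.4, 16.3 and 7.02 after 9 h and 43.1, 25.8 and 11.2 after 12 h. WT libraries were all clear of the 0 h range at every later time, while in KO 1 library at 12 h lay within it. Its log2 change was 1.57 ± 0.41 (adjusted p = 0.00719) in WT and 1.35 ± 0.37 (adjusted p = 0.0129) in KO. Stat2 was called in KO, from 42.5, 36.7 and 53.4 to 113, 73.7 and 48.4 CPM (0.83 ± 0.23, adjusted p = 0.0166), with 1 KO library at 12 h within the 0 h range, and not in WT, from 33.9, 43.6 and 31.1 to 54.2, 53.5 and 52 CPM (0.56 ± 0.24, adjusted p = 0.113), where the libraries did not overlap. Irf9, the DNA-binding partner of Stat2, was not called, with changes of 0.06 ± 0.31 and 0.12 ± 0.32. The KO call of Irf7 ended without KO 0 h replicate 1 (0.0507), KO 0 h replicate 2 (0.0593) or KO 12 h replicate 1 (0.156) and that of Stat2 without KO 0 h replicate 1 (0.0515), KO 0 h replicate 2 (0.0998) or KO 12 h replicate 1 (0.174). Irf7 overlaps Phrf1 on the opposite strand and Irf9 overlaps Rnf31 on the same strand. The strand setting of the counting was not stated, so such overlapping genes are uncertain. Herc6, Rtp4, Parp14 and Ifi47 also overlap another annotated gene on the same strand. Usp18, Oasl1, Dhx58, Eif2ak2, Adar, Ifi35 and Parp9 do so on the opposite strand.

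Of the nucleic acid sensors and RNA-binding enzymes 4 of 7 rose in each genotype. Ifi204, a cytosolic DNA sensor, had 39.2, 36.1 and 24.5 CPM at WT 0 h, 56.3, 64.6 and 53.8 after 9 h and 83.3, 117 and 85.98 after 12 h, whereas KO had 50.6, 65.2 and 60.5 CPM before challenge, 75.3, 107 and 61.97 after 9 h and 153, 129 and 85.6 after 12 h. At 12 h every library of either genotype exceeded its 0 h libraries. The log2 change was 1.51 ± 0.21 (adjusted p = 6.91e-06) in WT and 1.06 ± 0.20 (adjusted p = 0.000397) in KO. Ddx58 (RIG-I, a sensor of RNA ends) went from 18.4, 25.2 and 21.99 to 47.3, 69.6 and 45.9 CPM in WT and from 32.04, 42.4 and 38.4 to 91.1, 84.2 and 53.8 in KO, again without overlap, by 1.32 ± 0.23 (adjusted p = 0.000137) and 1.02 ± 0.21 (adjusted p = 0.00132). Ifih1 (MDA5, a sensor of long double-stranded RNA) went from 20.8, 27.3 and 23.6 to 40.4, 43.95 and 37.3 CPM in WT without overlap and from 16.5, 38.6 and 26.9 to 61.9, 44.97 and 35.7 in KO with overlap, by 0.77 ± 0.26 (adjusted p = 0.0423) and 0.77 ± 0.26 (adjusted p = 0.047). Dhx58 (LGP2) was called in KO (1.12 ± 0.30, adjusted p = 0.0119) and narrowly missed the threshold in WT (0.87 ± 0.31, adjusted p = 0.0503). Eif2ak2, the kinase PKR that halts translation, was called in WT (0.50 ± 0.16, adjusted p = 0.0316) and not in KO (0.29 ± 0.16, adjusted p = 0.259). Zbp1, a sensor of left-handed nucleic acid, and Adar, which edits double-stranded RNA, were called in neither. The WT call of Ifih1 ended with any 1 of the 6 libraries left out (adjusted p up to 0.148), and its KO call without KO 0 h replicate 1 (0.216), KO 0 h replicate 3 (0.123), KO 12 h replicate 1 (0.245) or KO 12 h replicate 2 (0.0808). The call of Eif2ak2 ended without WT 0 h replicate 1 (0.113), WT 0 h replicate 3 (0.106) or WT 12 h replicate 2 (0.21) and that of Dhx58 without KO 12 h replicate 2 (0.0977).

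Cxcl10, a chemokine that draws T and NK cells through Cxcr3, had the largest fitted WT change after Oasl1, from very few counts. In WT it had 1, 1 and 1 counts at 0 h, 0, 3 and 1 after 3 h, 4, 4 and 2 after 6 h, 8, 17 and 6 after 9 h and 17, 17 and 16 after 12 h. In KO it had 4, 3 and 7 counts before challenge, 4, 4 and 4 after 3 h, 9, 3 and 5 after 6 h, 10, 5 and 4 after 9 h and 24, 17 and 7 after 12 h. All WT libraries at 9 h and 12 h stood above the WT 0 h libraries, and the 3 KO 12 h libraries spread widely. In CPM, WT went from 0.353, 0.419 and 0.415 to 4.71, 5.26 and 6.55 and KO from 2.002, 1.12 and 3.09 to 10.5, 5.42 and 3.42. The pooled ratio in WT was 13.7 (counting interval 4.42 to 68.6, adjusted p = 0.000466), and the fitted log2 change in KO was 1.64 ± 0.55 (adjusted p = 0.0438). The KO call ended without KO 0 h replicate 1 (0.0969), KO 0 h replicate 2 (0.2), KO 12 h replicate 1 (0.269) or KO 12 h replicate 2 (0.061). Cxcl10 overlaps Art3 on the opposite strand.

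Of the 6 other members tested, 3 rose in each genotype. Parp14, an ADP-ribosyltransferase, went from 87.2, 102 and 108 to 179, 226 and 147 CPM in WT (0.90 ± 0.19, adjusted p = 0.00133) and from 107, 155 and 179 to 214, 275 and 196 in KO (0.64 ± 0.18, adjusted p = 0.0203). Trim30a, a ubiquitin ligase gene that restrains inflammatory signalling, went from 37.8, 51.2 and 41.5 to 67.5, 84.5 and 61.8 CPM in WT (0.72 ± 0.20, adjusted p = 0.0115) and from 52.6, 62.2 and 68.9 to 136, 114 and 66.03 in KO (0.78 ± 0.19, adjusted p = 0.00533). Both were clear of overlap in WT, and Trim30a had 1 KO library at 12 h within the 0 h range. Xaf1 rose in WT (2.01 ± 0.65, adjusted p = 0.031) and was not called in KO (0.76 ± 0.57, adjusted p = 0.44). Ifi47, an immunity-related GTPase gene, was not called in WT (0.19 ± 0.51, adjusted p = 0.851) and rose in KO (1.52 ± 0.52, adjusted p = 0.0478), where it went from 1.502, 2.25 and 4.42 to 10.5, 7.02 and 6.36 CPM. It overlaps the protein-coding gene Olfr56 on the same strand, so its counts are uncertain. Ifi35 and Parp9 were called in neither. The KO call of Parp14 ended without KO 0 h replicate 1 (0.115) or KO 12 h replicate 2 (0.139). That of Trim30a ended in WT without WT 0 h replicate 1 (0.0636) or WT 12 h replicate 2 (0.0774) and in KO without KO 12 h replicate 1 (0.0556). Those of Xaf1 and Ifi47 ended with 4 and 5 of the 6 libraries left out in turn, with adjusted p up to 0.116 and 0.172.

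**Figure D4:**
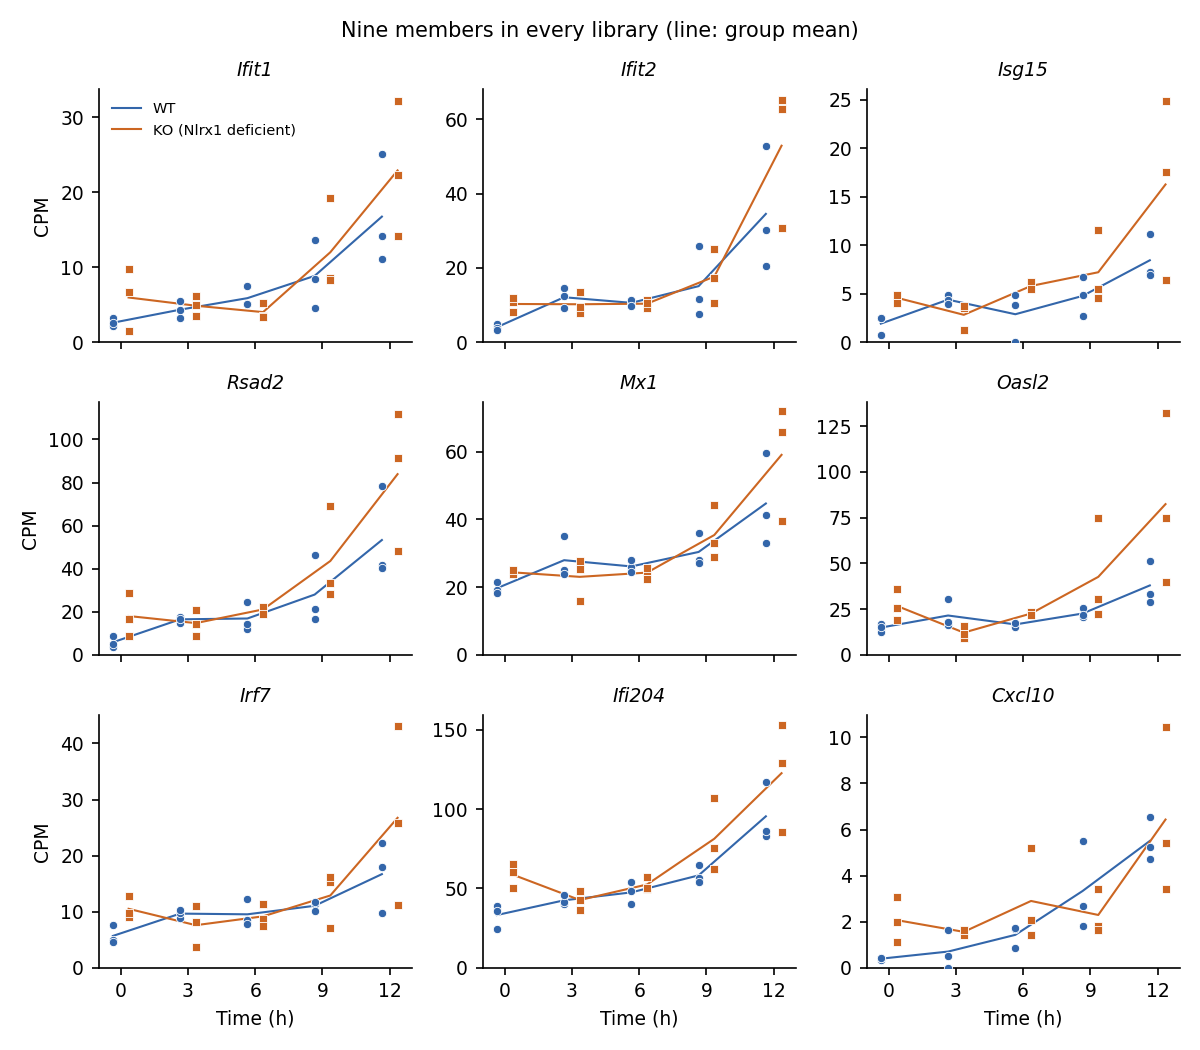
CPM (vertical axes, each from 0) of 9 members against time in hours for WT (circles) and KO (squares), 1 point per library, with lines through group means. Among the 12 h libraries the highest value in every panel is a KO library. At 12 h 1 KO library lies near or below the WT libraries in most panels.

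At 9 h against 0 h 8 of the 37 members rose in WT, Oasl1, Ifit2, Ifit1, Cxcl10, Rsad2, Cmpk2, Ifi204 and Ddx58, with 10.4% of all genes called and 5.57% called higher. Their log2 changes included 2.26 ± 0.57 (adjusted p = 0.0108) for Rsad2, 2.21 ± 0.63 (adjusted p = 0.0218) for Cmpk2, 1.88 ± 0.49 (adjusted p = 0.0123) for Ifit2, 1.73 ± 0.53 (adjusted p = 0.0339) for Ifit1 and 0.80 ± 0.21 (adjusted p = 0.0148) for Ifi204. In 19 members the WT 9 h libraries were all above the WT 0 h ones, against 14.9% of all genes. In KO edgeR called no member at 9 h, where it called 10.9% of all genes, and DESeq2 called 2 members. An unadjusted p under 0.05 in edgeR was seen for 12 members. The share of all genes at that level, here and below, is not given. The median change was 0.60 in WT and 0.45 in KO, and Rsad2 in KO was at 1.26 ± 0.46 (adjusted p = 0.09). Without WT 9 h replicate 2 only 1 WT call was left, that of Oasl1, without WT 0 h replicate 3 or 1 there were 4 and 5, and without KO 9 h replicate 1 there were 2 calls in KO. From 9 h to 12 h the step was called higher in WT for Ifit2, Herc6 and Ifi204 (10.5% of all genes called, 5.16% higher) and in KO for Ifit2, Mx1, Ddx58 and Herc6 (4.49%, 2.65% higher). The Ifit2 step was 1.21 ± 0.36 (adjusted p = 0.0294) in WT and 1.599 ± 0.35 (adjusted p = 0.00681) in KO. Without WT 9 h replicate 1 or 3 no WT step was called, without WT 12 h replicate 2 there was 1, without WT 9 h replicate 2 there were 5 and without WT 12 h replicate 3 there were 6. In KO there was none without KO 9 h replicate 1, 1 without KO 9 h replicate 3 or KO 12 h replicate 1 or 2, 10 without KO 9 h replicate 2 and 11 without KO 12 h replicate 3.

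At 3 h and 6 h no member was called in either genotype. At 3 h edgeR called 1.02% of all genes in WT and 1.22% in KO, and DESeq2 called 0 members in both. Members with an unadjusted p under 0.05 in the edgeR test numbered 7 in WT and 6 in KO. The signs differed: in WT the median log2 change was 0.52 and 12 members had all 3 libraries above the 0 h libraries (8.26% of all genes) and 0 had all 3 below (7.01%). In KO the median was -0.34, and 8 members had all 3 below (6.62%) and 0 had all 3 above (7.84%). At 6 h edgeR called 5.96% of all genes in WT and 5.91% in KO. An unadjusted p under 0.05 was seen for 6 members in WT and 4 in KO, and the medians were 0.40 and -0.10. DESeq2 called 1 member at WT 6 h and 0 at KO 6 h. Ifit2 at WT 3 h, for instance, changed by 1.54 ± 0.53 (adjusted p = 0.249), and Oasl2 at KO 3 h by -1.16 ± 0.46 (adjusted p = 0.373).

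Between genotypes, by the sign of most differences, the members ran higher in KO before challenge, lower at 3 h and higher again at 9 h and 12 h. At 6 h they were mixed. At most 2 single members passed the edgeR test at any 1 time. At 3, 9 and 12 h few members were free of overlap between the genotypes, shares near those of all genes. Members can move together within a library, so their signs are not separate evidence. Before challenge 2 of 37 were called higher in KO, Samhd1 and Ifi204, with 5.02% of all genes called and 2.26% called higher. Samhd1 was at 393, 438 and 392 CPM in WT and 483, 467 and 499.9 in KO, and Ifi204 at 39.2, 36.1 and 24.5 and 50.6, 65.2 and 60.5 CPM. Neither gene overlapped between the genotypes at 0 h. The log2 differences were 0.24 ± 0.07 (adjusted p = 0.0237) and 0.82 ± 0.22 (adjusted p = 0.0262). Over the 37 members 35 differences were positive, where 51.4% of all genes were, the median was 0.58, and in 20 all 3 KO libraries lay above all 3 WT libraries, against 11.4% of all genes. Oasl1 had 13 counts over the KO 0 h group and none in WT, at least 4.77-fold higher with WT set to 3 counts, and Cxcl10 had 14 and 3, a ratio of 5.13 (counting interval 1.43 to 27.9); neither was called. DESeq2 called 6 members at 0 h, a fit of only the groups compared called 5, and without a count filter 0 were called. The share of all genes that these other fits called is not given. The same groups differed in other measures without overlap: summed macrophage markers were 3336 to 3504 CPM in WT and 2389 to 2615 in KO, neutrophil markers 378 to 416.2 and 220.7 to 270.7, plasmacytoid markers 39.9 to 48.1 and 53.6 to 65.6 CPM. The small RNA share was 5.82% ± 0.30 and 3.42% ± 0.08 (SD, n = 3 libraries), and the part of these measures in the difference was not tested. The call of Samhd1 ended without WT 0 h replicate 1 (0.103), WT 0 h replicate 3 (0.108), KO 0 h replicate 1 (0.0642) or KO 0 h replicate 3 (0.119), and that of Ifi204 without WT 0 h replicate 2 (0.0551), WT 0 h replicate 3 (0.136), KO 0 h replicate 2 (0.108) or KO 0 h replicate 3 (0.0822).

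The later times gave 1 call in all. At 3 h no member was called (6.92% of all genes; 2 unadjusted p-values under 0.05, 0 calls with DESeq2). There 27 of 37 differences were negative, where 52.5% of all genes were positive, the median was -0.27, and in 4 members all 3 KO libraries lay below all 3 WT libraries, against 13.3% of all genes. At 6 h 24 differences were positive and 13 negative, where 50.9% of all genes were positive. In 6 members all 3 KO libraries lay above all 3 WT libraries (11.8% of all genes), and in 2 all lay below (12.9%). Herc6 alone was called (5.78% of all genes, with 2.42% called higher). Herc6 was at 5.09, 9.19 and 8.03 CPM in WT at 6 h and 18.5, 17.99 and 12.96 in KO, with every KO library above the WT libraries and a log2 difference of 1.13 ± 0.32 (adjusted p = 0.0318). That call ended without WT 6 h replicate 1 (0.158), WT 6 h replicate 3 (0.0661), KO 6 h replicate 1 (0.108) or KO 6 h replicate 2 (0.111). At 9 h edgeR called 0 members and 5.06% of all genes, and DESeq2 called 1 member. The median difference was 0.44, and in 3 members all 3 KO libraries lay above all 3 WT libraries, against 11.3% of all genes. The mean log2 CPM over the members was 4.22, 4.86 and 3.98 in KO and 3.99, 4.19 and 3.88 in WT. Without KO 9 h replicate 2, the highest of these, edgeR also called 0 members. The count was 0 with that library too, so it cannot tell how far the difference rests on it. At 12 h 37 of 37 differences were positive, where 50.1% of all genes were, with a median of 0.56 and 14 unadjusted p-values under 0.05. No member was called there by edgeR or DESeq2 (1.9% of all genes), and in 4 members the KO libraries all lay above the WT libraries, against 9.03% of all genes. Without KO 12 h replicate 3 the number called at 12 h was 5 and the median 0.77, and without KO 12 h replicate 1 it was 0 and the median 0.26. The share of all genes called in these fits is not given. Marker sums also differed at 12 h without overlap. Conventional dendritic cell markers were 2534 to 2912 CPM in WT and 3212 to 3305 in KO. Macrophage markers were 2507 to 2584 and 2030 to 2279 CPM, and neutrophil markers 406.1 to 471.7 and 190.4 to 211 CPM. Their part in the difference was not tested.

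**Figure D5:**
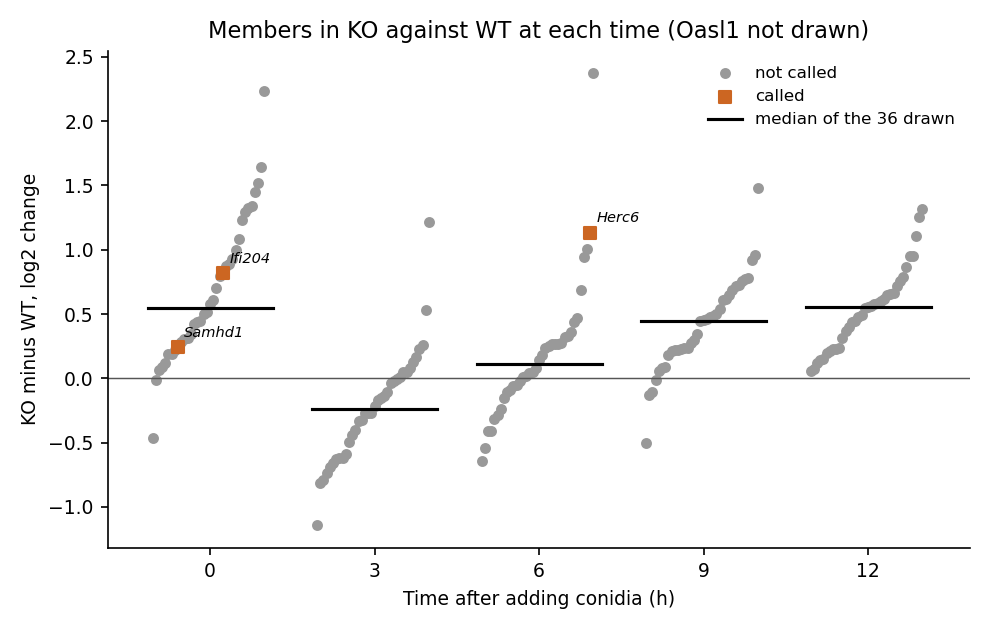
Log2 difference between KO and WT (vertical axis) for each of 36 tested members at each time in hours (horizontal axis), in order of size; squares are called members, grey points are not called and bars are medians. Oasl1 is left out because it had no count at WT 0 h. Points lie mostly above 0 at 0, 9 and 12 h and mostly below it at 3 h.

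Averaged over the 5 times, 13 of 37 members were higher in KO and none lower, with 24.9% of all genes called, 12.6% called higher and 12.2% lower, and the median difference was 0.31. They belonged to several roles. Herc6 (0.66 ± 0.13, adjusted p = 0.000387), Zbp1 (0.53 ± 0.13, adjusted p = 0.00301), Trim30a (0.38 ± 0.09, adjusted p = 0.00292), Parp14 (0.37 ± 0.08, adjusted p = 0.00197) and Ifi204 (0.36 ± 0.09, adjusted p = 0.00519) had the smallest p-values, followed by Samhd1 (0.11 ± 0.03, adjusted p = 0.00648) and Parp9 (0.29 ± 0.09, adjusted p = 0.0131). The other 6 were Oasl1, Cxcl10, Rsad2, Eif2ak2, Ddx58 and Stat2. Zbp1 was at 12.01, 12.2 and 11.2 CPM in WT and 21.02, 22.9 and 23.4 in KO at 0 h and at 18.3, 22.3 and 18.8 and 45.8, 31.6 and 22.99 after 12 h, with the KO libraries higher at both times. The calls of the first 7 held with any 1 of the 30 libraries left out. Those of Oasl1, Cxcl10, Rsad2, Stat2, Ddx58 and Eif2ak2 ended in 22, 21, 21, 19, 15 and 14 of these 30 fits, and the number called ran from 7 (without WT 0 h replicate 1, WT 9 h replicate 3, WT 12 h replicate 1 or KO 12 h replicate 1) to 15. It was 8 without WT 0 h replicate 3, WT 3 h replicate 1, WT 6 h replicate 1, WT 12 h replicate 3, KO 0 h replicate 3, KO 6 h replicate 3 or KO 9 h replicate 2. Of the 13, 4 were left when no gene was filtered for low counts. Genotype also moved with other measures: summed macrophage markers were 2507 to 3504 CPM over WT groups and 2030 to 2615 CPM over KO groups, neutrophil markers 378 to 978.4 and 190.4 to 544.1 CPM, plasmacytoid markers 39.9 to 59.7 and 47.7 to 70.9 CPM, and group means of the small RNA share 3.92% to 6.58% and 3.33% to 3.87%. Conventional dendritic cell markers were 2534 to 3536 CPM over WT groups and 3174 to 3585 CPM over KO groups. Ranges over all times can hide differences at 1 time. Their part in the difference was not tested.

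Whether loss of Nlrx1 changed the response of these genes was tested as the interaction of genotype and time. With edgeR 0 of 37 members and 0.888% of all genes were called, and DESeq2 called 0 members. In edgeR 4 members had an unadjusted p under 0.05. For the change from 0 h to 3 h alone, edgeR called 0 members and 0% of all genes. There 34 of 37 fitted differences, KO minus WT, were negative, where 51.3% of all genes were positive. The median was -0.91, with 15 unadjusted p-values under 0.05. Members can move together within a library, as in KO 12 h replicate 3, and are not replicates of this difference. The change to 12 h had 0 calls too (0.726% of all genes). All of these rest on the same 0 h libraries as the genotype difference before challenge and are not separate evidence.

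The rest of the pathway was examined through lists of ligands, receptors, induction and restraint. Of 13 interferon genes none had enough counts to be tested. Ifnb1 had 19 counts in all, in 9 of the 30 libraries and none at 0 h in either genotype, and Ifng 29 counts in 16 libraries, of which 6 were at WT 12 h and 10 at KO 12 h. Of the 10 receptor and kinase genes 9 were tested. Jak2, a kinase of cytokine receptors, rose by 0.29 ± 0.07 (adjusted p = 0.0051) in WT and 0.21 ± 0.07 (adjusted p = 0.0454) in KO. The receptor gene Ifnar1 was not called in either.

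Of the 21 genes of interferon induction, all tested, 5 rose and 3 fell at 12 h in WT, and 6 rose and 4 fell in KO, where over all genes 18.1% were called in WT (9.64% higher) and 14.7% in KO (8.13% higher). Irf1, a transcription factor of the same family as Irf7, rose from 20.4 ± 3.71 to 41.6 ± 5.00 CPM in WT (SD, n = 3 libraries; log2 change 1.04 ± 0.18, adjusted p = 0.000163) and from 22.5 ± 2.76 to 56.6 ± 10.7 in KO (1.31 ± 0.18, adjusted p = 6.44e-06). Tank, an adaptor of the kinase Tbk1, rose by 1.399 ± 0.11 (adjusted p = 4.83e-10) and 0.91 ± 0.11 (adjusted p = 7.82e-07), and Tbk1 by 0.55 ± 0.10 (adjusted p = 0.000327) and 0.50 ± 0.10 (adjusted p = 0.00132). The adaptor Mavs fell in WT (-0.46 ± 0.14, adjusted p = 0.0206) and Myd88, an adaptor of Toll-like receptors, in both (-0.41 and -0.46). Of 13 tested genes that restrain the pathway, 2 rose and 1 fell in WT and 1 rose and 2 fell in KO, shares near those over all genes. Socs3 rose in both (0.35 and 0.60) and Socs1, a brake on Jak kinases, fell in KO (-0.62 ± 0.20, adjusted p = 0.0308). Averaged over the times Jak2 (0.28 ± 0.03, adjusted p = 1.78e-07), Tank (0.36 ± 0.05, adjusted p = 4.11e-06) and the phosphatase gene Ptpn1 (0.29 ± 0.03, adjusted p = 1.91e-08) were higher in KO, as was Irf2 (0.23 ± 0.05, adjusted p = 0.00158). Myd88 (-0.19 ± 0.06, adjusted p = 0.0253), the phosphatase gene Ptpn6 (-0.23 ± 0.04, adjusted p = 5.92e-05) and Nlrx1 itself were lower, with 24.9% of all genes called, 12.6% higher and 12.2% lower.

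The authors' deposited table for WT 12 h against 0 h lists 743 genes, 21 of the 41 members among them, all higher, and the authors' deposited table for KO lists 528 genes with 19 members, all higher. At 9 h the authors' deposited tables list 4 members among 370 genes in WT and 1 among 369 in KO. Between genotypes the authors' deposited tables list Ifi204 at 0 h and Parp14 at 9 h, both higher in KO, and no member at 3, 6 or 12 h. The authors' deposited table for WT 12 h gives Oasl1 a log2 change of 5.58, which for a gene without counts at 0 h is no bound on the fold.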

How the data were processed

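RNA of 30 libraries (10 groups of genotype and time, 3 libraries each) had been sequenced from a stranded mRNA kit. The submitters' processing notes name Trimmomatic 0.35, HISAT2, StringTie, DESeq2 and the build GRCm38, but the annotation and strand setting behind the counts were not stated there. The deposited table gives, for every Ensembl gene, unnormalised counts, and its totals of 1722384 to 3509429 per library limit precision for the sparser members. The authors' deposited comparison tables hold log2 fold changes and adjusted p-values, limited to adjusted p-values under 0.05, and mean signal values per comparison in the authors' normalisation, which were not used. Per-sample columns without a sample numbered 0.

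Gene symbols and positions came from GENCODE M21. Genes were kept by filterByExpr (minimum count 10), which left 12393 with 98.7% of counts. Counts were fitted with edgeR 4.0.16 (R 4.3.3; TMM, quasi-likelihood, 1 coefficient per group over all 30 libraries), with p-values adjusted by Benjamini-Hochberg over all tested genes and called at 0.05. Errors of log2 changes are standard errors, and log2 CPM used a prior count of 2. Every member and pathway gene could be named; values in every library were to be given for Ifit1, Ifit2, Isg15, Irf7, Cxcl10, Cxcl9 and the members past the threshold, by adjusted p within each role, and markers as summed levels. The members and lists were chosen with earlier results of these data known. DESeq2 1.42.0, RLE scaling, no count filter, a fit of only the groups compared, a replicate block and leaving out each library were alternatives. The fit was tested on simulated data. Some pathway results are not reported here.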

Additional observations from a re-analysis of the deposited data

Results flagged for a closer look

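The mean log2 CPM over the 37 tested members moved in opposite directions in the genotypes early after conidia were added. From 0 h to 3 h it changed by 0.513 in WT and by -0.299 in KO, and from 0 h to 6 h by 0.307 in WT and by -0.135 in KO. These values were picked out because every WT library of those times lay above the WT 0 h mean and every KO library below the KO 0 h mean. The KO values overlapped their own 0 h range: it ran from 3.715 to 4.062, all 3 KO 6 h libraries (3.722 to 3.814) lay inside it, and so did 1 KO 3 h library (3.823). The difference in this mean was not tested.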

How the results depend on the processing

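No result reversed under any alternative that was run. At WT 6 h against 0 h, 1 member was called with DESeq2 and 1 with only the groups compared. Without a count filter the calls were 3 at WT 9 h, 0 between genotypes at 0 h and at 6 h, 4 for the mean of the genotypes, and 1 in WT and 0 in KO for 12 h against 9 h. With only the groups compared they were 1 at KO 6 h, 14 at KO 12 h, 5 between genotypes at 0 h, 0 at 6 h and 1 at 9 h, and 5 in WT and 0 in KO for 12 h against 9 h. DESeq2 gave 2 at KO 9 h, 6 between genotypes at 0 h and 1 at 9 h, and RLE scaling 1 at 9 h. The causes were not tested.

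Leaving out 1 library at a time gave 15 to 21 calls at WT 12 h, 14 to 25 at KO 12 h, 1 to 8 at WT 9 h, 0 to 2 at KO 9 h and 0 to 1 at WT 6 h. Between genotypes it gave 0 to 2 at 0 h, 0 to 1 at 3 h, 6 h and 9 h, 0 to 5 at 12 h and 7 to 15 for the mean. For 12 h against 9 h it gave 0 to 6 in WT and 0 to 11 in KO. In every alternative run, 15 of 22 WT 12 h calls, 9 of 25 KO 12 h calls and 4 of 13 calls for the mean were kept.

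Replicate numbers did not pair the libraries: over 135 pairs with the same number the mean correlation of deviations was 0.004, and 11 of 30 libraries correlated best with their own number. With the replicate block there were 23 calls at WT 12 h, 23 at KO 12 h, 1 at WT 6 h, 4 between genotypes at 0 h, 1 at 9 h and 11 for the mean. Cxcl10 and Ifi47 in KO at 12 h, and Cxcl10 and Oasl1 for the mean, were not called with the block. Low counts limit Cxcl9, Ifi44, Isg20, Ifit1bl1, Mx2, Oasl1 and Cxcl10.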
